A study of Mus musculus with 5 samples.

Results

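Pck1 and G6pc are 2 of the 64 genes of a targeted single-cell panel that was read in mouse hepatocytes passing from feeding to prolonged fasting. They were taken as the matrix rows with these gene symbols, and both were found. Pck1 (ENSMUSG00000027513; GENCODE on GRCm38, chromosome 2, 173153048 to 173159273, plus strand) encodes the cytosolic phosphoenolpyruvate carboxykinase, which turns oxaloacetate into phosphoenolpyruvate near the entry of gluconeogenesis. G6pc (ENSMUSG00000078650; chromosome 11, 101367561 to 101377903, plus strand) encodes the catalytic part of glucose-6-phosphatase, the enzyme that frees glucose from glucose-6-phosphate.

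Gluconeogenesis is the making of glucose from lactate, amino acids and glycerol, and the liver uses it to hold blood glucose between meals. Glucagon, through cyclic AMP, and glucocorticoids raise transcription of both genes, and insulin lowers it. G6pc also serves glycogen breakdown, because that route too ends in glucose-6-phosphate. Within a liver lobule, blood runs from the portal vessels to the central vein, and gluconeogenesis is described as strongest on the portal side. Cyp2f2 is a marker of that periportal side and Cyp2e1 of the pericentral side.

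The cells were isolated total hepatocytes of wild-type male C57BL/6J mice kept on normal chow (lab diet 5053). For 3 days the mice had food during the daytime for 8 h and none for 16 h overnight. On the last day they received chow and water holding 20% sucrose. The fed library (0 h) was taken after 4 h of feeding, at clock hour 13. The fasted libraries followed 8, 16, 24 and 30 h after food and sucrose water were removed, at clock hours 21, 5, 13 and 19. Each time point was 1 library, of a number of mice not given in the sources used here, so no value has a replicate error and no test was made. Hours of fasting and clock hour cannot be told apart, save that the 0 h and 24 h libraries were taken at the same hour. Intervals below are at 95% and cover counting error only.

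From 0 h to 30 h the libraries held 7208, 12153, 9460, 8558 and 10094 cell barcodes, 47473 in all. Median panel UMIs (unique molecular identifiers, counts of captured RNA molecules) per barcode were 1033, 219, 651, 1202.5 and 1149 in that order. The 8 h library stood apart, with 47.8% of its barcodes under 200 UMIs, against at most 5.52% in any other. Of 47235 distinct barcode sequences, 238 occurred in more than 1 library. Alb, the hepatocyte gene for albumin, took 69.4% to 71.8% of panel UMIs. The 6 panel genes of a list of 10 markers of other liver cells summed to 29.7 to 76.2 UMIs per 1000000 panel UMIs, but to 220 at 8 h. Their part in the results was not tested.

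Both genes differed between fed and fasted libraries, so the 250 bases before their start sites are shown, as given by RefSeq on GRCm38.p6, 5′ to 3′ on the plus strand (chr2:173152823-173153072 and chr11:101367466-101367715). Capitals mark every match, on either strand, to 4 short motifs: TTACGTNA (a cyclic AMP response element with an ACGT core), TGTTTT (the core of the insulin response element bound by FOXO factors), GTTAAT (a part of the HNF1 element) and TATAAA (the TATA box).
Pck1: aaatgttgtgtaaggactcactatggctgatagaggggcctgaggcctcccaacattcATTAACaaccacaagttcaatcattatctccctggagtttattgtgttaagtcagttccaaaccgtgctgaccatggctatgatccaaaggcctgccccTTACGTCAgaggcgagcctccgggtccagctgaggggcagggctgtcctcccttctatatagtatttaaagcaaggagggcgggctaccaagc
G6pc: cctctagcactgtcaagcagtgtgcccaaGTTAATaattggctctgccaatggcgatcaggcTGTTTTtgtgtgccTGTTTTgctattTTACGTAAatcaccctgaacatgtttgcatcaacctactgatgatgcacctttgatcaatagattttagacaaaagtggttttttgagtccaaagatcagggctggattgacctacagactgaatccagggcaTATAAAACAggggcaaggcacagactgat

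Each promoter held 1 match to TTACGTNA, TTACGTCA at 93 to 86 bases before the start in Pck1 and TTACGTAA at 162 to 155 bases before it in G6pc. Among 32851 RefSeq promoters of the same length, 0.788% held a match on either strand. TGTTTT had 3 matches in G6pc, 1 of them overlapping the TATA box, and 0 in the Pck1 window, against 19.8% of promoters with 1 or more. GTTAAT was found 1 time in each (6.43% of promoters), and TATAAA 1 time in G6pc and 0 times in Pck1 (12.4%). These matches describe the letters only. The windows end at the RefSeq starts, which for both genes lie downstream of the GENCODE starts given above, so the end of the Pck1 window and most of the G6pc window fall within the gene as GENCODE has it.

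In CPM both genes were higher in every fasted library than in the fed one, Pck1 by more than G6pc. Levels were taken as summed UMIs per 1000000 panel UMIs (CPM). Pck1 stood at 8772 CPM in the fed library (8705 to 8839), then at 26189, 36701 and 27659 CPM, and at 52516 CPM after 30 h (52383 to 52650). It was thus lowest when fed and highest at 30 h, and the 24 h library was below the 16 h one. Its folds over 0 h were 2.99, 4.18, 3.15 and 5.99. G6pc stood at 3908 CPM in the fed library (3864 to 3953), then at 7736, 7480 and 5482 CPM, and at 5969 CPM after 30 h (5924 to 6014). Its folds were 1.98, 1.91, 1.40 and 1.53, so in CPM its highest library was at 8 h. By median-of-ratios scaling it was highest at 16 h (log2 0.71 at 8 h and 1.07 at 16 h), and by UMIs per barcode at 24 h and 30 h (0.71 in both). More than 2-fold above 0 h stood Pck1 in 4 of 4 fasted libraries and G6pc in 0 of 4. The G6pc count sat at the threshold: without Alb in the total the log2 values at 8 h and 16 h were 1.08 and 1.01, which made it 2 of 4. Among 56 panel genes, 17.9%, 10.7%, 8.93% and 16.1% did so in the 4 fasted libraries in turn. Counted as UMIs per barcode, both genes lay below 0 h at 8 h (log2 of -0.10 for Pck1 and -0.69 for G6pc), while the median of all genes there was -1.63. By the same measure the 16 h values were 1.38 and 0.25, with a median of -0.83, against 2.06 and 0.94 in CPM. In CPM that median was 0.047.

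The ratio of Pck1 to G6pc UMIs needs no total, since it is taken within the same barcodes. There were 2.24 Pck1 UMIs per G6pc UMI in the fed library (2.21 to 2.28), then 3.39, 4.91 and 5.05, and 8.80 after 30 h (8.73 to 8.87). The ratio was higher in each later library, and the 16 h and 24 h values lay closest together. Between them the log2 difference in CPM was -0.41 for Pck1 and -0.45 for G6pc. From 24 h to 30 h the genes parted, with Pck1 higher by 0.93 and G6pc by 0.12. The size of the ratio depends on how well the capture probes took each gene, so only its change between libraries is described.

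**Figure D1:**
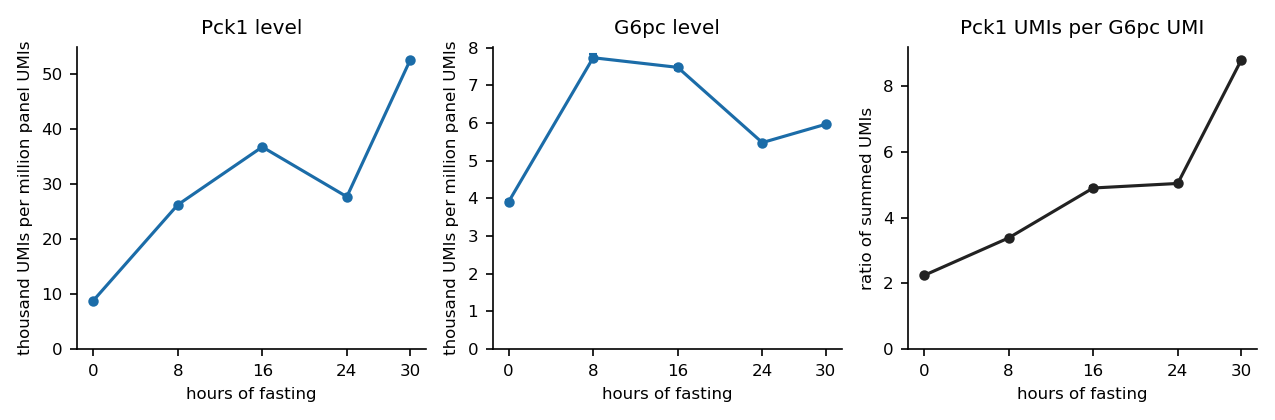
Level of Pck1 and of G6pc (UMIs per 1000000 panel UMIs, in units of 1000) and Pck1 UMIs per G6pc UMI against hours of fasting, 1 point per library, with 95% counting intervals (mostly smaller than the points). In these CPM values Pck1 is highest at 30 h (52516) and G6pc at 8 h (7736), and the ratio runs from 2.24 to 8.80.

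Of the pathway's other genes, the panel held 5 of a list of 20 for glucose handling and fasting. They did not move as 1 group. Over 2-fold above 0 h were 2, 2, 1 and 3 of the 5 in the fasted libraries in turn, and over 2-fold below were 1, 2, 3 and 2 (of 56 panel genes, 10, 6, 5 and 9 were above and 7, 16, 13 and 15 below). The list's median log2 ratio was 0.32, 0.30, -1.19 and 1.55, against 0.047, -0.15, -0.12 and -0.071 over the 56. With 5 genes such a median is the value of a single gene. At 8, 24 and 30 h this was a gene with UMIs in only a small share of barcodes, so the medians do not describe the list. Sds, serine dehydratase, which feeds serine carbon into pyruvate, had folds of 2.82, 1.23, 1.94 and 4.30, and like Pck1 was highest at 30 h. Pklr, the liver pyruvate kinase of glycolysis, was at 0.989 of its 0 h level at 8 h and at 0.0905 at 30 h. Igfbp1, an insulin-repressed gene for a binding protein of insulin-like growth factors, was highest at 8 h in CPM (23.8-fold). Of a lipogenic list, 6 of 8 genes were on the panel, and in each fasted library 5 of the 6 were over 2-fold below 0 h and 0 above.

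Relative to its mean, Pck1 varied more between barcodes in the fed library than in any fasted one. To set every barcode at the same depth, each was thinned at random to 500 panel UMIs, and shallower ones were left out (1132, 9125, 3007, 1293 and 1304 from 0 h to 30 h). At 0 h the remaining 6076 barcodes held a median of 3 Pck1 UMIs, with 0 at the 5th percentile and 13 at the 95th, where counting error alone around the same mean (4.51) would give 1 and 8. Fed barcodes thus ran from none to several times the mean. At 30 h the median was 27, with 7 at the 5th percentile and 44 at the 95th, against 18 and 35 from counting error. The lower percentile lay farther out than the upper one, as a tail of low barcodes. The variance over the mean, which is 1 for pure counting, was 4.01, 3.31, 3.29, 2.51 and 4.50 for Pck1 from 0 h to 30 h. For G6pc it was 1.97, 1.91, 1.95, 1.34 and 1.49.

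**Figure D2:**
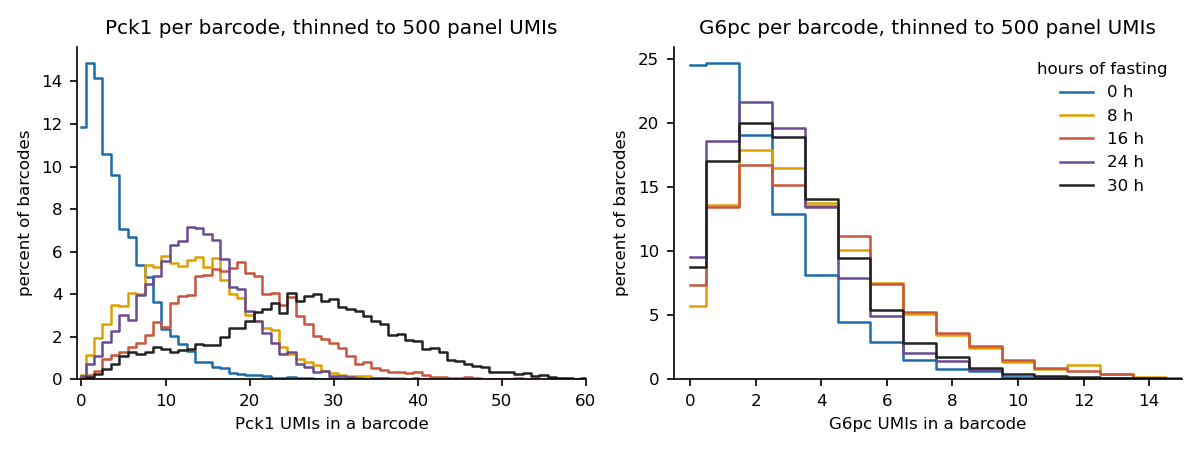
Percent of barcodes (vertical axis) by their number of Pck1 or G6pc UMIs (horizontal axis) after thinning each to 500 panel UMIs, 1 line per library. The fed Pck1 line piles up near 0 with a median of 3, and the 30 h line is centred on 27.

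The variance over the mean grows with the level itself, so the spread was also expressed as a coefficient of variation (CV) beyond counting error, the SD of the underlying level between barcodes divided by its mean. It used all barcodes and each one's own depth. For Pck1 it was 0.783 when fed and 0.450, 0.356, 0.292 and 0.352 in the fasted libraries in turn. The fed library lay above all 4 fasted ones. For G6pc it was 0.678 when fed and 0.483, 0.502, 0.356 and 0.410 when fasted, again highest in the fed library. Counting error made up 12.7% of the Pck1 variance at 0 h and 30.4% of that of G6pc. In the fasted libraries its part was 10.4% to 26.3% for Pck1 and 40.7% to 51.2% for G6pc.

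Placed among the panel genes with a mean of at least 1 UMI per barcode, Pck1 had the 4th highest CV of 39 at 0 h. The higher ones were Glul (2.72), Cyp2e1 (2.22) and Gulo (2.17), which are pericentral markers. G6pc was 6th. In the fasted libraries Pck1 ranked 19th of 23, 26th of 31, 31st of 35 and 21st of 34, and G6pc 16th, 12th, 23rd and 15th. The median CV of these genes was 0.414, 0.536, 0.454, 0.373 and 0.373 from 0 h to 30 h. The median was thus above the fed one at 8 h and 16 h, where both members were below their own fed values. Fewer genes passed the UMI minimum in the fasted libraries, so these medians and ranks are not over the same genes. Of 20 genes above the UMI minimum in every library, Pck1 and G6pc were among the 5 (25.0%) whose CV was below its fed value in each fasted library. Taken singly, 25.0%, 35.0%, 65.0% and 70.0% of the 20 were below it at 8, 16, 24 and 30 h. Among the 20, Pck1 and G6pc had the smallest ratios of the largest fasted CV to the fed one, 0.575 and 0.741, before Cyp2e1 (0.796).

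**Figure D3:**
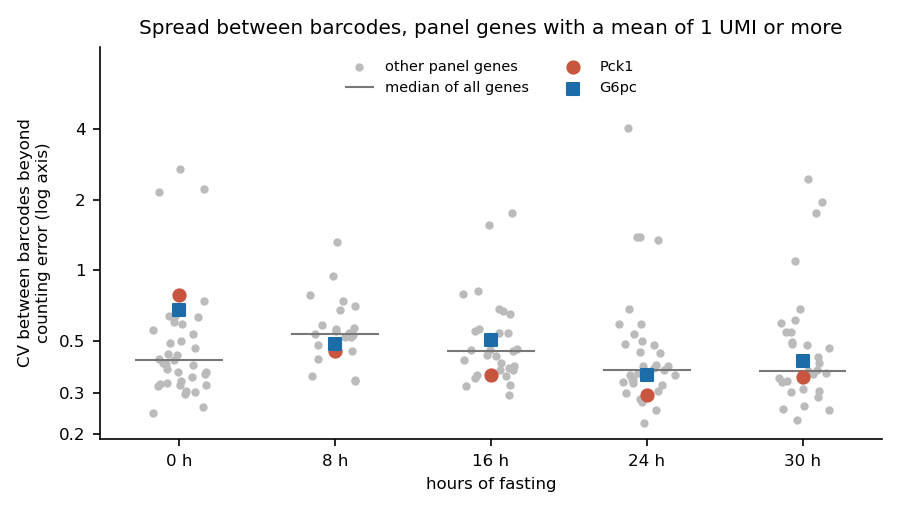
CV between barcodes beyond counting error (log axis) for every panel gene with a mean of 1 or more UMIs, by library, with Pck1 and G6pc marked and the median of all genes as a line. Pck1 goes from 0.783 at 0 h, near the top of the panel, to 0.292 at 24 h, below the median.

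Barcodes without any Pck1 UMI were also most in excess when fed, in number. At 0 h, 521 barcodes (7.23%) had none, where counting error around 1 common level would leave 88.8. The shallow 8 h library had 351 against 328. The other fasted libraries had 23, 13 and 3, against 2.48, 0.491 and 0.0049. G6pc was missing from 1121, 2934, 770, 408 and 480 barcodes from 0 h to 30 h, against 485, 2665, 400, 258 and 243 from counting error. A barcode without a UMI is no cell without the transcript, since each gave only a sample of its RNA.

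The spread was much the same within a narrow stretch of the lobule axis. With the expected level set separately in 10 bins of the Cyp2e1 to Cyp2f2 ranking described below, the Pck1 CV was 0.761 at 0 h and 0.288 to 0.457 in the fasted libraries. For G6pc it was 0.661 at 0 h and 0.354 to 0.501. In single bins the fed Pck1 CV ran from 0.696 to 0.878, above the highest value of any bin in a fasted library (0.480, at 8 h). The spread also differed between depths, in no single direction. The Pck1 CV of the shallowest and the deepest quintile of barcodes was 0.852 and 0.701 when fed and 0.417 and 0.207 at 24 h. At 8 h it was 0.356 in the shallowest, 0.601 in the middle and 0.396 in the deepest quintile. The fed library was the higher one at every depth, with a CV of 0.701 to 0.895 in its 5 depth quintiles against at most 0.601 in any depth quintile of a fasted library. After thinning to 200 UMIs the fed value was 0.821 and the highest fasted one 0.535, at 8 h. That left out 52, 5807, 522, 4 and 26 shallower barcodes from 0 h to 30 h.

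Fed barcodes rich in Pck1 were also richer in G6pc. When the fed barcodes were ranked by their share of Pck1 UMIs and divided into quintiles, G6pc stood at 2704, 3233, 3884, 4451 and 5484 CPM from the lowest to the highest, a log2 difference of 1.02 (0.96 to 1.08) between the outer quintiles. The median depth of these was 945 and 1010 UMIs. In reverse, Pck1 stood at 6382 CPM in the fed quintile with least G6pc and at 12362 CPM in that with most (log2 0.95). In the fasted libraries the G6pc difference between the outer Pck1 quintiles was smaller in each case, at 0.32, 0.45, 0.28 and 0.62 in turn. The fasted values also hung on the total. With Alb left out of the total that G6pc was divided by, they became -0.21, 0.30, -0.045 and -0.090, while the fed value was 1.08. With Alb left out of the ranking as well, they were 0.25, 1.17, 0.90 and 0.94, and the fed value was 1.38. At 8 h the highest Pck1 quintile was shallow, with a median of 117 UMIs where the lowest had 262.

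As a correlation of the 2 underlying levels across barcodes, with counting error removed, the pair gave 0.39, 0.22, 0.23, 0.23 and 0.36 from 0 h to 30 h, over all 7208, 12153, 9460, 8558 and 10094 barcodes. These are descriptions of single libraries, whose barcodes share a library, its free RNA and a common total, and weak values in sparse counts are no finding. All pairs of the genes measured at 1 or more UMIs per barcode had medians of 0.28, 0.28, 0.41, 0.47 and 0.34. The pair therefore lay above the median pair at 0 h (rank 208 of 741) and slightly above it at 30 h (258 of 561), and below it at 8, 16 and 24 h. Among the 38 partners of Pck1 in the fed library G6pc ranked 4th, and among those of G6pc, Pck1 ranked 2nd. In the fasted libraries G6pc took places 13 to 18 among the partners of Pck1, while Pck1 took places 9, 2, 3 and 2 among those of G6pc. Within bins of the Cyp2e1 to Cyp2f2 ranking the 5 values were 0.38, 0.20, 0.24, 0.23 and 0.36. With Alb left out of the depth they were 0.51, 0.30, 0.56, 0.62 and 0.56, so the libraries from 16 h on were then above the fed one. With Cyp2e1 and Cyp2f2 left out too they were 0.51, 0.29, 0.51, 0.50 and 0.35. The order of the libraries in this correlation thus hung on the total.

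The genes whose pattern across barcodes was most like that of Pck1, by the median of this correlation over the 5 libraries among 16 eligible genes, were Igf1 (0.51, range 0.43 to 0.67), Sds (0.49, range 0.36 to 0.53) and Acly (0.45, range 0.024 to 0.63). Igf1 encodes insulin-like growth factor 1 and Acly the ATP citrate lyase that supplies acetyl-CoA for fat. The least like was Cyp8b1 (-0.029), a bile acid hydroxylase. For G6pc they were Igf1 (0.25, range -0.17 to 0.34), Pck1 (0.23, range 0.22 to 0.39) and Sds (0.14, range 0.089 to 0.32), and the least like was Igfbp2 (-0.051). Pck1 was thus the only 1 of the 3 whose value with G6pc stayed above 0.2 in every library. Its lowest value, at 8 h, was near that limit. After thinning to 200 UMIs it was 0.19, and as Pearson's r of log values, with counting error kept, -0.0040.

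Fed barcodes rich in Pck1 held less of several genes of fat synthesis. Scd1, the stearoyl-CoA desaturase, stood at 95269 CPM in the lowest and 56872 CPM in the highest fed Pck1 quintile (log2 -0.74). Elovl6, an elongase of long-chain fatty acids, went from 10629 to 6190 CPM (log2 -0.78, -0.82 to -0.74). Gpam, which starts triglyceride synthesis and was picked after its values were seen, went from 10181 to 5497 CPM (log2 -0.89). This was not so of the whole lipogenic list, of which Scd1 and Elovl6 are part. Fasn, the fatty acid synthase, differed by 0.13 and Acly by 0.23, and the other 2 panel genes of the list by 0.048 and 0.15. The list's median correlation with Pck1 at 0 h was -0.033, against 0.023 over all 38 partners, and 4 of 6 were below 0, as were 16 of 38. Sds went the other way, from 1148 to 2618 CPM (log2 1.19). Actb, the cytoskeletal actin gene, was higher too (log2 0.62), so the ranking also followed a gene outside metabolism.

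In the fasted libraries the same ranking gave other signs. Gpam differed between the outer Pck1 quintiles by 0.45, 0.28, 0.52 and 0.85 from 8 h to 30 h, and Scd1 by 0.085, -0.044, 0.30 and 0.56. Elovl6 differed by -0.13, 0.19, 0.097 (-0.068 to 0.26) and 0.24. Igfbp1 was lower in the highest fed quintile (log2 -0.75) and higher in the fasted ones (0.46, 0.13, 0.33 and 0.89). Without Alb in the total the fed Igfbp1 value was -0.69 and the fasted ones -0.069, -0.022, -0.0019 and 0.19. These fasted signs depended on Alb, whose share moved with the ranking. At 30 h Alb took 795016 CPM in the lowest and 665727 CPM in the highest Pck1 quintile, measured without Pck1, whereas at 0 h the values were 699413 and 711745. The correlation beyond counting error, whose depth leaves out both genes of a pair, was positive for Pck1 and Alb, at 0.44 at 0 h and 0.57 at 30 h. The sign of this pair at 30 h thus hung on the measure. With Alb out of the total, Scd1 differed by -0.44, -0.20, -0.033 and -0.15 and Gpam by -0.075, 0.12, 0.19 and 0.15, against -0.68 and -0.83 at 0 h. The fed differences of Scd1, Elovl6 and Gpam kept their sign under both totals, and with Alb left out of the ranking too (-0.70, -0.66 and -0.82).

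**Figure D4:**
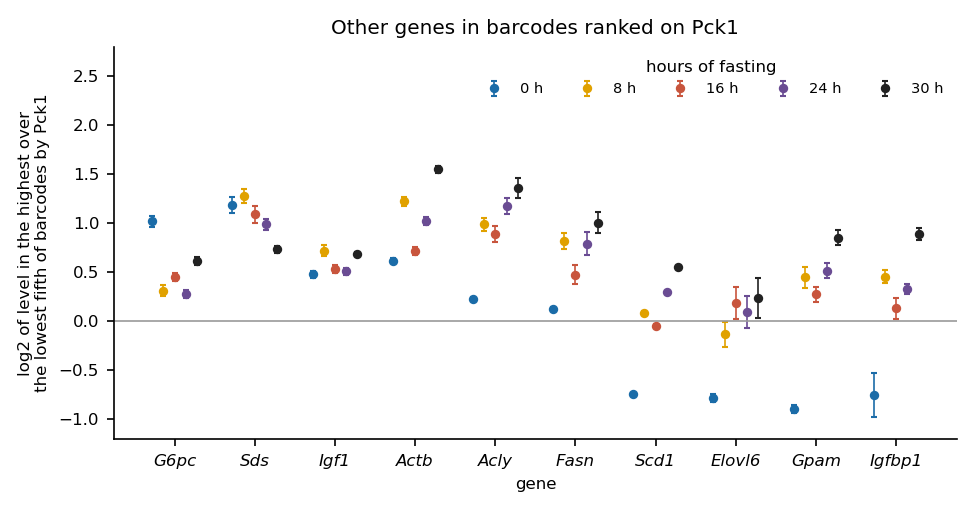
Log2 of the level of each named gene in the highest over the lowest quintile of barcodes ranked on Pck1 (vertical axis, 95% counting intervals), by library. At 0 h G6pc (1.02) and Sds (1.19) lie above 0 and Scd1 (-0.74), Elovl6 (-0.78), Gpam (-0.89) and Igfbp1 (-0.75) below, and most fasted values lie above 0 with Alb in the total.

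The next comparison placed both genes along the lobule. Barcodes of each library were ranked by the log2 ratio of Cyp2e1 to Cyp2f2 UMIs, with 1 added to each, and cut into 10 bins of equal number. Bin 1 is the Cyp2f2-high (periportal) end and bin 10 the Cyp2e1-high (pericentral) end. The bins are ranges of a ratio within 1 library, not cell types, and a bin number does not stand for the same ratio in each library. In bin 1 the median log2 ratio was -4.58 at 0 h and -1.84 at 24 h. In bin 8 it was -1.26 at 0 h and 2.97 at 24 h. At 0 h Cyp2e1 ran from 170 CPM in bin 1 to 107771 in bin 10, and Cyp2f2 from 23479 to 3447. In the 8 h library bins 5 to 9 held shallow barcodes, with medians of 114 to 139 UMIs, so their order rests on few marker UMIs.

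In the fed library Pck1 was level over the first 7 bins and lower in the last 3. It stood at 9322, 9086, 9555, 9421, 9344, 9013 and 8950 CPM in bins 1 to 7 and at 7100, 6470 and 7107 in bins 8 to 10. G6pc followed it, at 4261 CPM in bin 1, 3809 in bin 7, 3317 in bin 8 and 3049 in bin 10. Taking 2 bins (20% of barcodes) at each end, Pck1 stood at 9205 CPM at the Cyp2f2-high end and 6798 CPM at the Cyp2e1-high end, a log2 ratio of 0.44 (0.40 to 0.48). G6pc stood at 4192 and 3079 CPM, a log2 ratio of 0.45 (0.38 to 0.51). The fed genes thus had nearly the same gradient.

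In the fasted libraries the gradient in CPM was shallower or the other way. For Pck1 the log2 ratio of the ends was -0.15 in the 8 h library (-0.18 to -0.13), 0.10 in the 16 h library (0.083 to 0.12), 0.077 in the 24 h library (0.059 to 0.095) and -0.20 in the 30 h library (-0.21 to -0.19). Among 8 h barcodes with 10 or more UMIs of Cyp2e1 and Cyp2f2 it was -0.022, with an interval that held 0 (-0.056 to 0.013). Pck1 at 8 h also differed with depth, at 37946 CPM in the shallowest quintile of barcodes, 22873 in the 4th and 26831 in the deepest. The 8 h Cyp2e1-high end was the shallower one (medians of 250 and 587 UMIs), and the part of depth was not tested. At 30 h Pck1 was lowest in bin 1 (48467 CPM) and highest in bin 9 (59601 CPM). For G6pc the log2 ratio of the ends was -0.29 in the 8 h library (-0.34 to -0.25), and the intervals of the later 3 held 0 (-0.072 to 0.017, -0.0012 to 0.077 and -0.067 to 0.0055). From its lowest to its highest bin G6pc varied 1.40-fold at 0 h, 1.29-fold at 8 h and 1.10-fold to 1.13-fold later. In CPM, 86.0% at 8 h and 78.0% at 30 h of panel genes with at least 100 UMIs, Cyp2e1 and Cyp2f2 aside, were higher at the Cyp2e1-high end, as Pck1 was in both and G6pc at 8 h. At 0 h neither gene was, while 86.3% of those genes were. At 16 h (85.7%) and 24 h (83.7%) Pck1 was not.

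The direction hung on Alb, whose share fell from 72.7% in bin 1 to 47.5% in bin 10 at 0 h and from 75.2% to 45.4% at 30 h. Without Alb in the total, both genes were higher at the Cyp2f2-high end in every library. The log2 ratios for Pck1 were 1.21, 0.69, 1.12, 1.14 and 0.80 from 0 h to 30 h, and those for G6pc 1.22, 0.55, 0.99, 1.10 and 0.96. Of the panel, 70.0%, 69.4%, 68.8%, 72.9% and 79.6% were higher at that end by the same measure. That total still held Cyp2e1, on which the barcodes were ranked. With Cyp2e1 and Cyp2f2 left out too, the Pck1 ratios were 1.06, 0.56, 0.87, 0.79 and 0.31. Those for G6pc were then 1.07, 0.42, 0.74, 0.75 and 0.47, so all were smaller but stayed above 0. By UMIs per barcode both genes were higher at the Cyp2f2-high end in every library too. There Pck1 had 11.5 UMIs at 0 h, against 4.59 at the Cyp2e1-high end, and 65.9 against 46.3 at 30 h. These ends differed in depth, with medians of 1223.5 and 603 UMIs at 0 h and 1333 and 809 at 30 h. By each of these measures, CPM included, the Pck1 ratio of the ends was lower in every fasted library than at 0 h.

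In CPM the difference from the fed library was larger in the last 3 bins than in bin 1. In bin 1 the log2 difference of Pck1 from 0 h in CPM was 1.39, 2.01, 1.49 and 2.38 in the fasted libraries in turn. In bin 10 it was 1.91, 2.23, 1.86 and 2.95, larger at each time. For G6pc the bin 1 values were 0.68, 0.77, 0.43 and 0.48 and the bin 10 values 1.47, 1.33, 0.87 and 1.05. Without Alb in the total, bin 10 was again above bin 1 for both genes at each time, but the bins between did not follow that order. At 24 h Pck1 then differed by 1.84 in bin 1, 1.43 in bin 7 and 1.96 in bin 10, and G6pc by 0.78, 0.35 and 0.97. Each of these differences uses the same fed library, and bins of the same number lay at unlike marker ratios. They thus do not compare the same place on the axis.

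Pck1 UMIs per G6pc UMI gave a view of the axis that no total can move. At the Cyp2f2-high and Cyp2e1-high ends the ratio was 2.20 and 2.21 at 0 h, a log2 difference of -0.0078 (-0.081 to 0.066). The 8 h library had 3.51 and 3.19 (log2 0.14, 0.086 to 0.19), and the 16 h library 5.04 and 4.60 (log2 0.13, 0.082 to 0.18). The 24 h library had 4.86 and 4.73, with an interval of the difference that held 0 (-0.0031 to 0.082). At 30 h it was 8.28 and 9.30, a log2 difference of -0.17 (-0.21 to -0.13). The fed ratio thus did not differ between the ends beyond counting error. The 8 h and 16 h ratios were higher at the Cyp2f2-high end, and the 30 h ratio was higher at the other end, from 8.13 in bin 1 to 10.0 in bin 9 and 8.71 in bin 10. The ends do not describe the bins between. At 8 h the ratio was 3.58 in bin 1, lowest in bin 4 (3.07) and highest in bin 7 (3.96). At 24 h it was lowest in bin 1 (4.57) and highest in bin 8 (5.43). In the 8 h library the ratio also differed with depth, at 4.78 in the shallowest quintile of barcodes and 2.73 in the middle one. In the 30 h library it was 9.75 in the shallowest and 8.81 in the deepest quintile, and the Cyp2e1-high end was the shallower one. The part of depth in these differences was not tested.

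**Figure D5:**
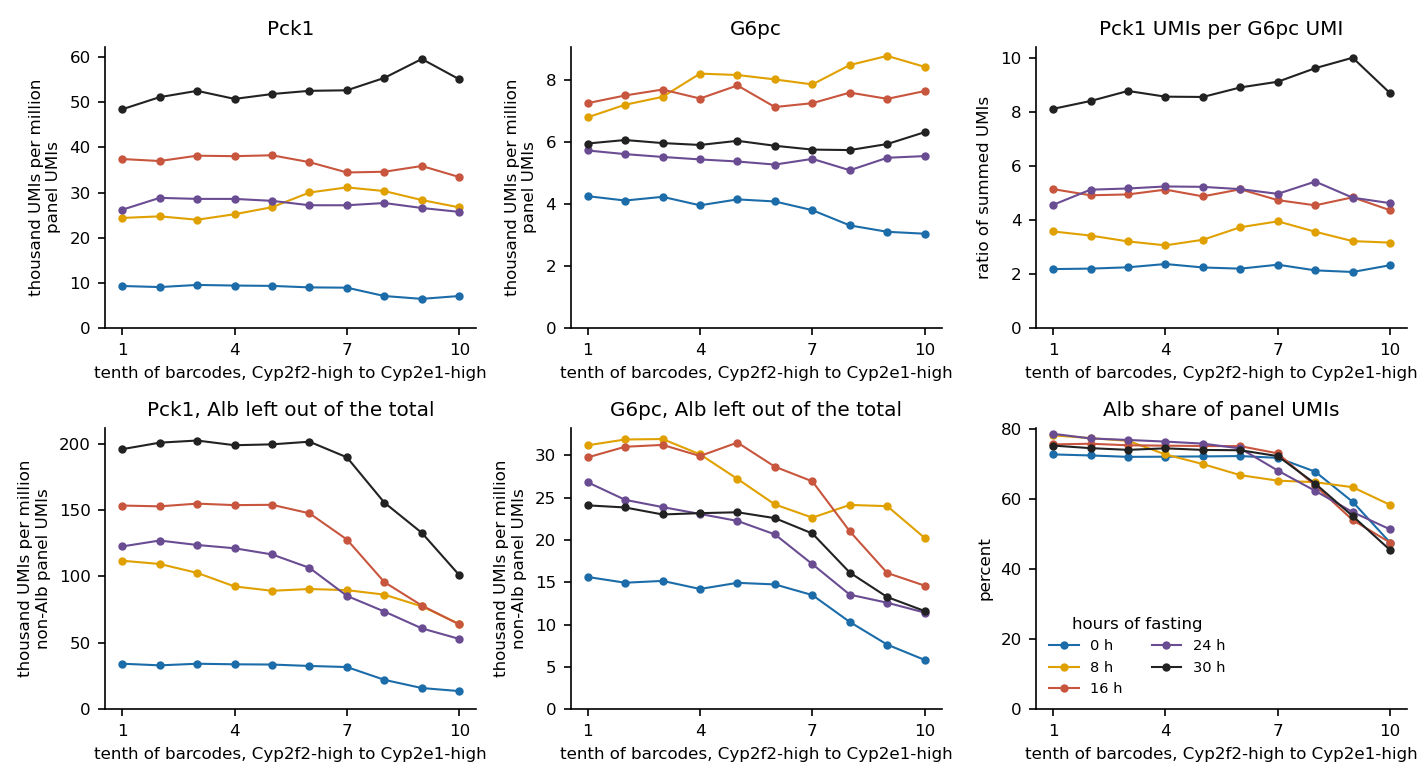
Pck1 and G6pc level, Pck1 UMIs per G6pc UMI and Alb share (vertical axes) in 10 bins of barcodes ranked from Cyp2f2-high to Cyp2e1-high (horizontal axis), 1 line per library; the lower row leaves Alb out of the total. In CPM the 30 h Pck1 line is highest in bin 9 (59601 CPM), and without Alb it falls toward bin 10, as the Alb share does. The total without Alb still holds Cyp2e1, which is at 218049 CPM of all panel UMIs in bin 10 at 30 h.

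Sds, by comparison, kept a clear gradient in CPM at 30 h, with 8145 CPM at the Cyp2f2-high and 3886 CPM at the Cyp2e1-high end (log2 1.07, 1.03 to 1.11). Within the Cyp2e1-high end, barcodes of 200 or more UMIs with Glul, the glutamine synthetase gene of the cells next to the central vein, at 10 or more per 1000 UMIs were few (62 to 149 per library). At 0 h these 70 barcodes had Pck1 at 8397 CPM (7516 to 9352) against 6697 CPM in the other 1330, and G6pc at 2664 (2179 to 3224) against 3105 CPM (2993 to 3221). Their Alb share was 41.1% against 53.7%, and without Alb in the total Pck1 stood at 14249 and 14478 CPM. At 16 h the 79 Glul-high barcodes had less Pck1, 27129 CPM (25409 to 28936) against 35075 CPM (34663 to 35490). At 30 h the 62 Glul-high barcodes had Pck1 at 55593 CPM (53390 to 57863) and the other 1946 at 57237 CPM (56865 to 57610), intervals that overlapped. At 8 h and 24 h Glul-high barcodes had more Pck1, 30449 against 26517 CPM and 28102 against 25984 CPM. Without Alb in the total their Pck1 value was the lower one in every library, with 89625 against 115063 CPM at 30 h. At 0 h that gap was within counting error. The total without Alb still held Glul, on which these barcodes were picked, and this lowers the share of other genes in them. A total without Glul was not made.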

How the data were processed

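Targeted 10x Genomics 3' libraries of mouse hepatocytes went through a target hybridization protocol, per the labels' protocols. UMI counts of 64 genes, whole numbers with no scaling seen, were deposited as 1 matrix, whose header names Cell Ranger 6.0.1. The genome was mm10, per the submitters' processing notes. Cell calling and any levelling of depth are not given in the sources used here. Each barcode's library was read from a second deposited file. No barcode was left out unless stated, and no doublet caller was run on so small a panel.

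CPM, Poisson and conditional binomial intervals, the CV and the correlation beyond counting error (moment estimates, with a barcode's depth taken without the genes measured) were computed with Python 3.11.15, numpy 2.4.6, scipy 1.17.1 and pandas 2.3.3. The CV, the correlation and the ratio of the ends were tested on simulated counts at the real depths. The simulation held no shared total and no Alb, so it cannot show how these bear on the values. Thinning, quintiles and median-of-ratios scaling were not tested in it. With 1 library per time point no test was run. Likeness was ranked among genes with a mean of 1 or more UMIs in every library, without Alb, Cyp2e1 and Cyp2f2. For each member the 3 most alike and the 1 least alike were named, with at most 4 panel genes each of a glucose and a lipogenic list and the reference genes Alb, Actb, Glul, Cyp2e1 and Cyp2f2. Members, lists and rules were chosen with earlier results of these data known. Alternatives were other totals, barcode filters, thinning and bin numbers. A total without Alb, Cyp2e1 and Cyp2f2 for spread and correlation, and totals without Alb for quintiles, were chosen after seeing the data. The values of 1 listed gene are not reported here.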

Additional observations from a re-analysis of the deposited data

Results flagged for a closer look

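In CPM the ratio of the Cyp2f2-high over the Cyp2e1-high end had 1 sign at 0 h and the opposite sign in a fasted library for Pck1 (log2 0.44 when fed, -0.15 and -0.20 after 8 and 30 h) and G6pc (0.45 when fed, -0.29 after 8 h), with counting intervals clear of 0. Without Alb in the total these ratios were all above 0. In CPM, among barcodes with 10 or more UMIs of Cyp2e1 and Cyp2f2, the 8 h Pck1 ratio was -0.022. Its interval (-0.056 to 0.013) held 0. The 8 h G6pc ratio was then -0.32 and the 30 h Pck1 ratio -0.19.

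Between the outer Pck1 quintiles, Gpam had a log2 difference of -0.89 at 0 h and of at least 0.28 in the fasted libraries, and Igfbp1 of -0.75 at 0 h and of at least 0.13. Between the outer G6pc quintiles, Igfbp1 had -0.60 at 0 h and at least 0.21 in the fasted libraries. Without Alb in the total the fasted Pck1-quintile values began at -0.075 (Gpam) and -0.069 (Igfbp1), so not all were then above 0. All are differences between single libraries and were not tested.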

How the results depend on the processing

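No paired analysis was possible because each time point has 1 library, and for the same reason no replicate was left out. Of 262 values recomputed, 83 stayed within the counting interval (for spread and correlation, equal at 2 decimals), 158 moved and 21 changed sign. The settings with 5 and 20 bins took the same 20% of barcodes at each end as the main one. Their values could not move, and they are counted among the 83. The largest or smallest fasted spread and correlation were also counted again beside the single libraries they came from. In 7 of 7 settings the fed spread was above all 4 fasted ones for both genes.

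Leaving Alb out of the total gave log2 levels at 30 h of 2.60 (Pck1) and 0.63 (G6pc), fed CVs of 0.851 and 0.736, largest fasted CVs of 0.483 and 0.592, and correlations of 0.51 when fed and, when fasted, of 0.30 as the smallest (8 h) and 0.62 as the largest (24 h), above the fed value. End ratios, Pck1 then G6pc, were 1.21 and 1.22 when fed, 0.69 and 0.55 after 8 h, 0.99 (G6pc) after 16 h, and 0.80 and 0.96 after 30 h. Leaving out Cyp2e1 and Cyp2f2 too gave levels of 2.71 and 0.74, fed CVs of 0.850 and 0.727, fasted CVs of 0.469 and 0.570, correlations of 0.51 and 0.29, and end ratios of 1.06 and 1.07, 0.56 and 0.42, 0.74 (G6pc), and 0.31 and 0.47. UMIs per barcode gave levels of 2.68 and 0.71 at 30 h and of -0.10 and -0.69 at 8 h, and end ratios of 1.32 and 1.33, 0.73 and 0.59, 0.76 (G6pc), and 0.51 and 0.68. Median-of-ratios scaling gave levels of 2.73 and 0.76.

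Barcodes with 300 or more UMIs gave a largest fasted Pck1 CV of 0.458, a fed G6pc CV of 0.675, a smallest fasted correlation of 0.21 and a fed Pck1 end ratio of 0.49. Without the 5% deepest barcodes the Pck1 level at 30 h was 2.55, the Pck1 CVs were 0.794 and 0.480, the fasted G6pc CV was 0.511, the fasted correlation was 0.21, and the end ratios were 0.48 (Pck1, fed), -0.17 (Pck1, 30 h) and 0.0095 (G6pc, 30 h). Thinning to 200 UMIs gave Pck1 CVs of 0.821 and 0.535, G6pc CVs of 0.713 and 0.507, and correlations of 0.38 and 0.19. Within the 10 bins these were 0.761 and 0.457 (Pck1), 0.661 (G6pc, fed), and 0.38 and 0.20. As Pearson's r of log values, with counting error kept, the correlation was 0.26 when fed and -0.0040 after 8 h. With 3 bins the end ratios were -0.15 (Pck1, 30 h), 0.38 (G6pc, fed) and 0.0091 (G6pc, 30 h), and ranking on UMIs per 1000 gave 0.52 and -0.19 (Pck1, fed and 30 h). The cause of these shifts was not tested. Depth limits the 8 h library most.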
